A study of Mus musculus with 12 samples.

Results

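The 10 genes described here make, recycle or consume nicotinamide adenine dinucleotide (NAD): Cd38, Bst1, Nampt, Nmnat1, Nmnat3, Naprt, Nnmt, Sirt1, Sirt3 and Parp1. They were chosen by symbol, and all 10 were found among the 24422 features of the count tables and were among the 16713 genes tested. RNA was read from stromal cells of mouse adipose tissue in 12 libraries, 3 in each of 4 groups. The first group carried p21+/mcherry and was fed a standard diet (SD mCherry), and the others were fed a high-fat diet (HFD) and carried p21+/mcherry (HFD mCherry), p21+/mcherry-Tert (HFD Tert) or p21+/mcherry-TertCi (HFD TertCi). Tert is the catalytic subunit of telomerase and TertCi is read here as its inactive form. Every group therefore had 1 altered p21 allele, and the added coding sequence was driven by the p21 promoter, so its expression was limited to cells in which that promoter is active. The design text names the HFD control as p21+/- whereas the sample labels name it p21+/mcherry, and the labels were followed. Sex, age, fat depot and whether each library came from a separate animal are not given in the sources used here, so p-values measure only the spread between these samples.

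NAD carries electrons in metabolism and is also cut apart by signalling enzymes, which release nicotinamide. Cells rebuild it mostly by salvage, in which Nampt converts nicotinamide to nicotinamide mononucleotide and the Nmnat enzymes complete NAD. Naprt opens a parallel route from nicotinic acid, Nnmt removes nicotinamide by methylation, and the consumers include the surface enzymes Cd38 and Bst1, the sirtuin deacylases and the poly(ADP-ribose) polymerases. In obese adipose tissue Cd38 is known mainly as a surface enzyme of immune and endothelial cells.

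The libraries held 16430330 to 19486965 counts assigned to genes. Values are given in CPM, counts scaled to a common library total with TMM factors, and a gene is called when its Benjamini-Hochberg adjusted p in edgeR's quasi-likelihood test over all 16713 genes is under 0.05. The Tert-containing mCherry transcript had 0 counts in the 6 mCherry libraries and 33 to 86 in the 6 libraries with a Tert or TertCi allele. A list of 9 epididymal and epithelial genes, which mark cells other than adipose stroma, divided the libraries. Its mean log2 CPM, called the epithelial score here, was -0.25 in HFD Tert replicate 27, 1.80 and 2.21 in HFD mCherry replicates 20 and 17 and 2.38 in HFD TertCi replicate 31, but 4.51 to 8.72 in the other 8 libraries, which include every SD library. The epididymal gene Crisp1 did not follow this split throughout. It had 5 counts in SD mCherry replicate 2 (score 4.51) but 10667 in HFD mCherry replicate 17 (score 2.21). In bulk RNA, fewer cells of a type and less RNA per cell cannot be told apart. The 14 macrophage genes summed to 1185 to 1389 CPM on the standard diet and, on the high-fat diet, to 2659 to 6591 with mCherry alone, 989 to 2698 with Tert and 1269 to 1925 with TertCi. The 8 endothelial genes summed to 851 to 1205 CPM on the standard diet and to 1655 to 3043, 2096 to 4995 and 2316 to 5229 CPM in these HFD groups. The part of these cell types and of the epithelial score in the differences given for the NAD genes was not tested. The score is used as a covariate below. That fit cannot tell its part from that of other cell types, whose sums differ between the same libraries.

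None of the 10 genes was called in any of the 6 pairwise comparisons or in the F-test over the 4 groups. Relative to transcript length (CPM per kilobase of merged exon, mean over 12 libraries), Nampt was highest at 23.4, followed by Sirt1 at 16.7, Nnmt at 12.7, Cd38 at 9.64, Bst1 at 6.77, Naprt at 5.83, Parp1 at 4.30, Sirt3 at 2.29, Nmnat3 at 1.23 and Nmnat1 at 0.794. Bst1 varied most, 11.2-fold between its lowest and highest library, and Nampt least, 1.65-fold.

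**Figure D1:**
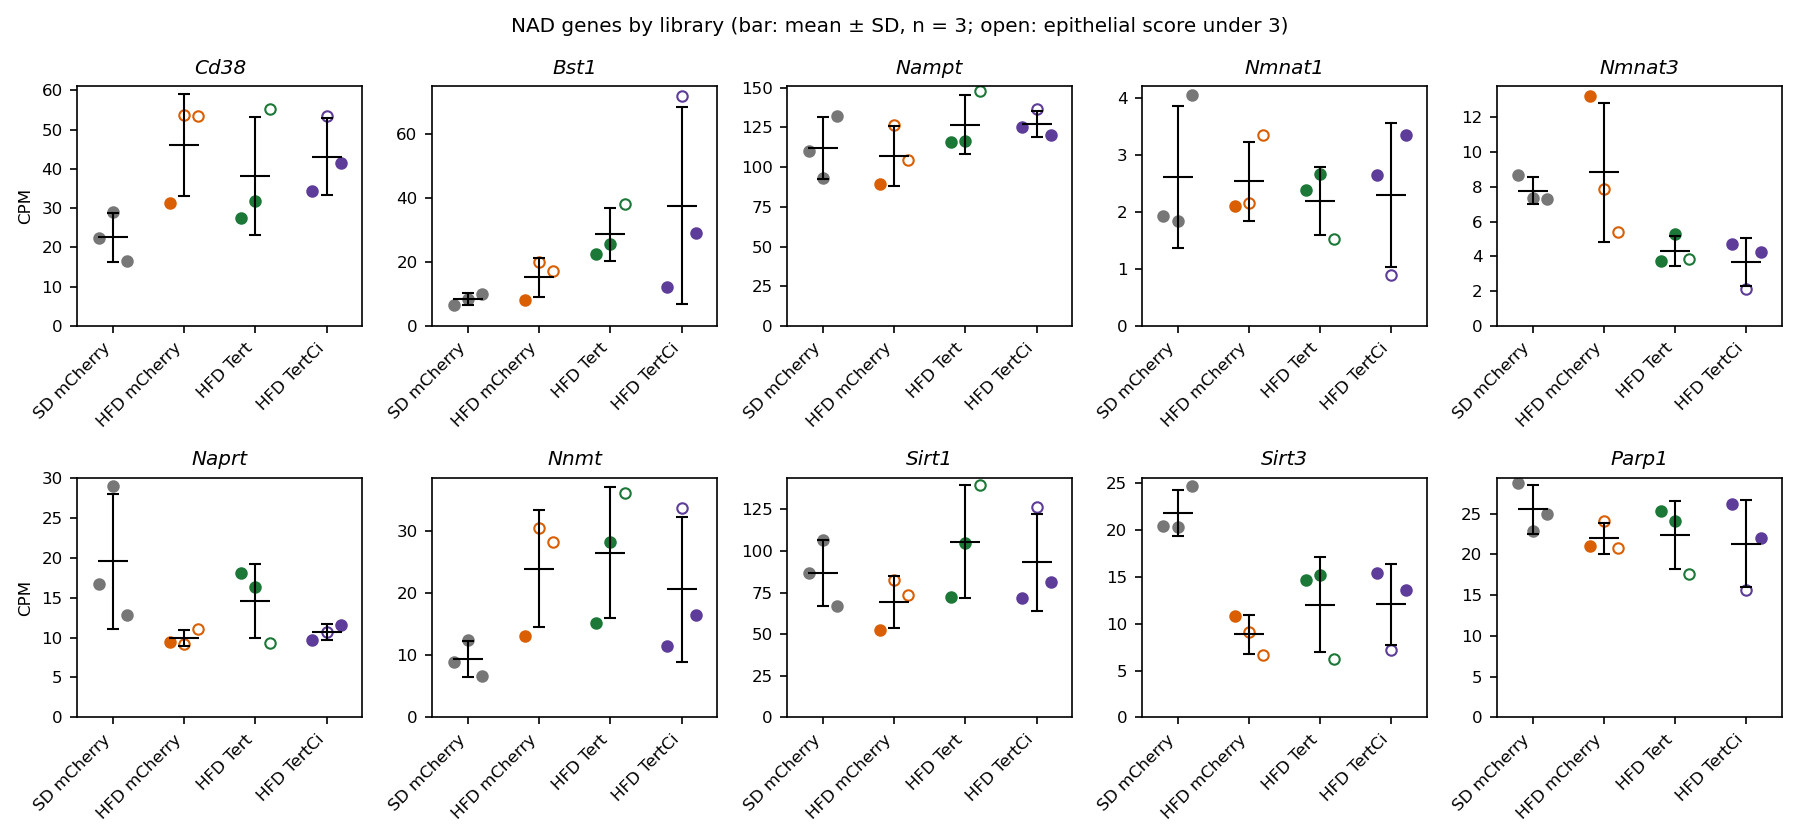
CPM of each gene in every library (vertical axes, each from 0) by group (horizontal axes). Points are libraries, horizontal bars are means and error bars are SD (n = 3); open points are the 4 libraries with an epithelial score under 3. The 3 SD mCherry libraries lie above all 9 HFD libraries for Sirt3, and for Cd38 the 4 open points lie together between 53.3 and 55.2 CPM.

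The sequence before the start of 3 of these genes is shown because the first 2, Nampt and Sirt1, had the highest levels per kilobase and the third, Nmnat3, is the gene whose values separated the Tert and TertCi libraries from the mCherry libraries. RefSeq's promoter table (GRCm38.p6) held 7 of the 10 genes and lacked Bst1, Naprt and Nnmt. Each sequence is the 250 bases before RefSeq's start, 5′ to 3′ on the gene's own strand. GENCODE M21 has transcripts of all 3 genes that start further upstream, so each window lies inside the GENCODE gene: those of Nampt and Nmnat3 are intronic there, and that of Sirt1 is intronic except for its last bases, which reach into an exon. Capitals mark exact matches, on either strand, to the E-box CACGTG bound by the clock and Myc families or to the GC box GGGCGG, and neighbouring GC boxes may overlap.
Nampt, chr12:32820085-32820334, plus strand: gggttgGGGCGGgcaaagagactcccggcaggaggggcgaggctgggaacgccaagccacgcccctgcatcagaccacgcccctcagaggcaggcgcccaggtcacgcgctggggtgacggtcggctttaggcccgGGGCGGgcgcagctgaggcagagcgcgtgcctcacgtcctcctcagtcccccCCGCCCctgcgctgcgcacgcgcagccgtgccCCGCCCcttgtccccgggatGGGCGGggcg
Sirt1, chr10:63339036-63339285, minus strand: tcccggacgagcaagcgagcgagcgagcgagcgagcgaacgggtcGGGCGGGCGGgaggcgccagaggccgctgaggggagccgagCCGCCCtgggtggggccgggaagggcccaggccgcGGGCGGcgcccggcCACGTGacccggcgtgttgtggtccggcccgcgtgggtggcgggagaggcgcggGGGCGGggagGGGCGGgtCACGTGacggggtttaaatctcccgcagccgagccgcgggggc
Nmnat3, chr9:98296320-98296569, plus strand: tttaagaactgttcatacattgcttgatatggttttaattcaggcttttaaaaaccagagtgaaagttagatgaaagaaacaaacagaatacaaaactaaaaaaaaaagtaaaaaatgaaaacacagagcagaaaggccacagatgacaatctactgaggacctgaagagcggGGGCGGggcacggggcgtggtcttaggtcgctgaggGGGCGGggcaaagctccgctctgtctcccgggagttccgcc
Of 32851 windows of this length in the table, 6.02% held CACGTG, 32.7% held GGGCGG and 12.4% held TATAAA, the core of the TATA box, each sought on both strands. The Sirt1 window held 2 E-boxes and 6 GC boxes, the Nampt window 5 GC boxes and the Nmnat3 window 2 GC boxes. TATAAA was in none of these windows. GC content was 79.2% for Sirt1, 75.6% for Nampt and 45.6% for Nmnat3, against a median of 52.4% over all windows. The Cd38 window held none of these motifs and was 48.8% GC. It also lies inside the GENCODE gene, wholly within the untranslated part of the first exon, and is not printed for that reason. A match is a description of the letters and not a measured binding site.

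Cd38, the main NAD-degrading surface enzyme of many tissues, stood at 22.4, 28.9 and 16.5 CPM in SD mCherry replicates 1, 2 and 3. It stood at 31.2, 53.7 and 53.3 CPM in HFD mCherry replicates 15, 17 and 20. All 3 HFD mCherry libraries were thus above all 3 SD libraries, although replicate 15 was only just above the highest of them. The means were 22.6 ± 6.25 and 46.1 ± 12.9 CPM (SD, n = 3 each), a log2 fold change of 1.03 ± 0.337 (SE) that was not called (edgeR adjusted p = 0.119). In HFD Tert replicates 25, 26 and 27 Cd38 was at 27.4, 31.9 and 55.2 CPM, and in HFD TertCi replicates 30, 31 and 33 it was at 34.3, 53.6 and 41.4 CPM. Both of these groups overlapped HFD mCherry and each other.

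The order of the Cd38 group means was SD mCherry, HFD Tert (38.2 ± 14.9 CPM), HFD TertCi (43.1 ± 9.75 CPM) and HFD mCherry. No neighbours in that order differed beyond the test's threshold. HFD Tert was 0.76 ± 0.336 (SE) above SD mCherry on the log2 scale (edgeR adjusted p = 0.308), and HFD TertCi was 0.93 ± 0.336 above it (adjusted p = 0.265). Against HFD mCherry the log2 differences were -0.27 ± 0.334 for HFD Tert (edgeR adjusted p = 0.707) and -0.10 ± 0.333 for HFD TertCi (adjusted p = 0.914). These comparisons share their control libraries. The TertCi difference changed sign, to 0.03, when libraries were scaled by their totals alone, and to 0.06 with the epithelial score in the model.

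Within the HFD groups Cd38 was highest in the libraries with a low epithelial score. Its values in the 4 libraries with a score under 3, from 3 different groups, were 53.3 to 55.2 CPM (mean 54.0 ± 0.864, SD, n = 4). The 5 HFD libraries with a higher score held 27.4 to 41.4 CPM (33.2 ± 5.18, SD, n = 5), and the 3 SD libraries, all with a higher score, held 16.5 to 28.9 CPM. With the score added to the model the diet difference was 0.70 ± 0.161 (SE) on the log2 scale and was called (edgeR adjusted p = 0.0303, with 5.94% of all genes called). In that model Cd38 was also called for HFD TertCi against SD mCherry (0.76, edgeR adjusted p = 0.0451, with 1.42% of all genes called), and in the F-test over the groups 1 of the 10 genes was called, with 6.1% of all genes. Without HFD mCherry replicate 15, the library with the highest score, it was 1.24 ± 0.339 and also called (edgeR adjusted p = 0.0431, with 12.2% of all genes called). With only the 8 libraries of higher score it was 0.45 ± 0.345 and was not called (edgeR adjusted p = 0.807), with HFD mCherry replicate 15 alone in its group and its spread assumed to be that of the other groups. The HFD mCherry libraries with more Cd38 also had more macrophage RNA: the macrophage list summed to 2659 CPM in replicate 15, 6591 in replicate 17 and 5379 in replicate 20. HFD TertCi replicate 31, with Cd38 at 53.6 CPM, had a macrophage sum of 1925 CPM and the highest endothelial sum of the 12 libraries, 5229 CPM. The part of either cell type in Cd38 was not tested.

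**Figure D2:**
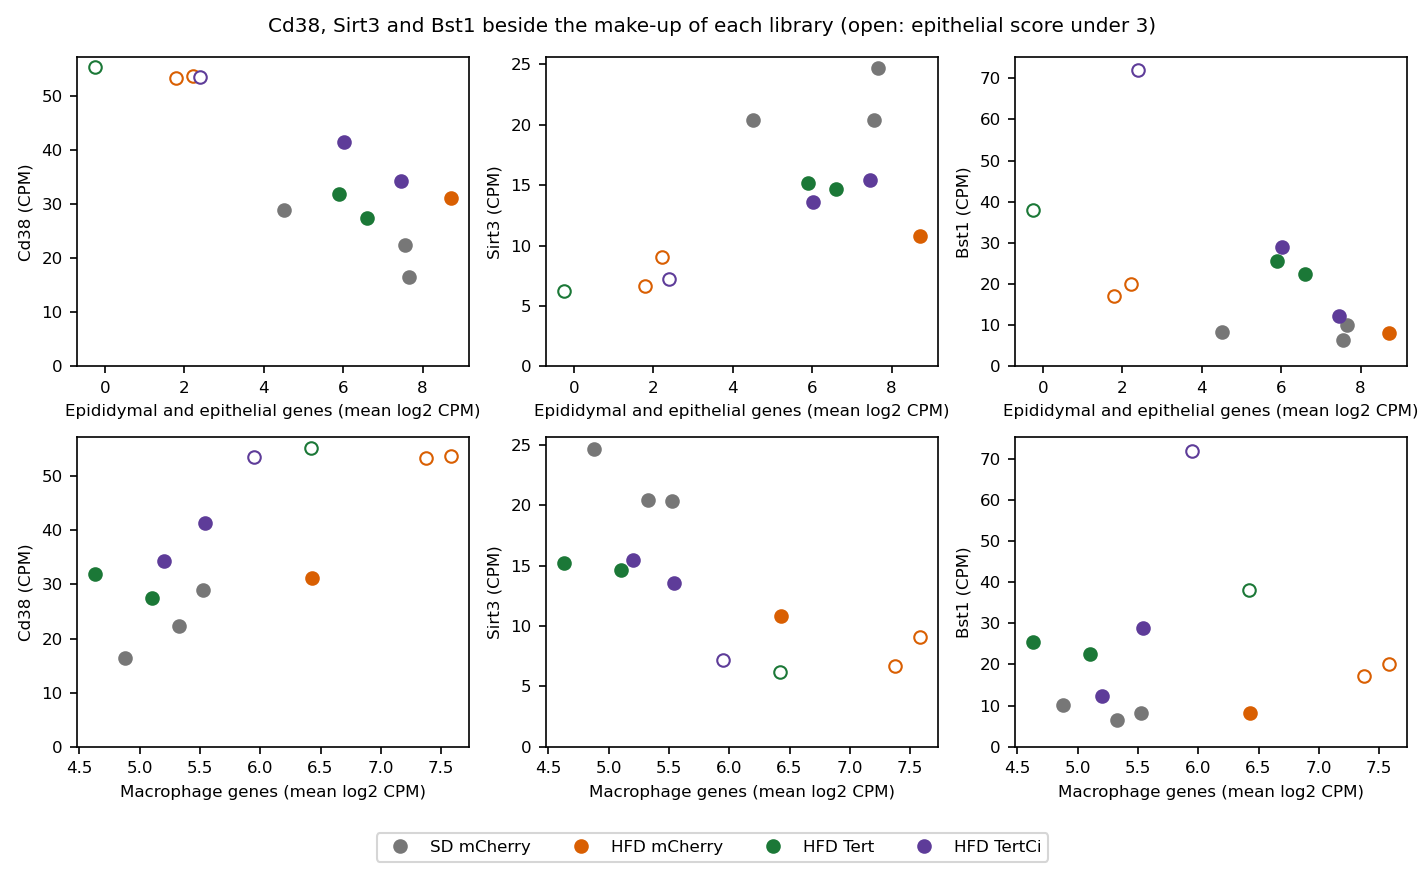
CPM of Cd38, Sirt3 and Bst1 (vertical axes) against the mean log2 CPM of the epididymal and epithelial genes (upper row) and of the macrophage genes (lower row) in the 12 libraries, coloured by group. Open points are the 4 libraries with an epithelial score under 3, where Cd38 was between 53.3 and 55.2 CPM and Sirt3 between 6.23 and 9.08 CPM.

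The 5 genes were sought whose profile over the 12 libraries lay closest to that of Cd38, by the mean absolute difference between log2 CPM profiles each centred on its own mean. Among 12348 genes averaging 5 CPM or more the closest were Rapgef1 (0.104), Mapk7 (0.117), Git2 (0.118), Rnf24 (0.118) and Zdhhc18 (0.119). The median gene was at 0.543 and the nearest 5% of genes were within 0.249. Rapgef1 was at 49.3 to 93.1 CPM in SD mCherry and at 202 to 231 CPM in the 4 libraries with a low epithelial score. The points share libraries and their make-up. Of the other NAD genes Nnmt was nearest to Cd38, at 0.327, while its genomic neighbour Bst1 was at 0.673.

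Bst1 encodes a second NAD-cleaving surface enzyme of the same family, anchored to the membrane by a lipid and known from bone marrow stroma and myeloid cells. Its gene (chr5:43818885-43843986, plus strand, GRCm38) ends 24566 bases before Cd38 begins (chr5:43868553-43912375, plus strand). These and the gene positions that follow are from GENCODE M21 (GRCm38), the assembly that mm10 names. Bst1 was at 6.42, 8.34 and 10.1 CPM in SD mCherry and at 8.18, 20.1 and 17.2 CPM in HFD mCherry replicates 15, 17 and 20. It was at 22.5, 25.5 and 38.0 CPM in HFD Tert replicates 25, 26 and 27 and at 12.2, 71.9 and 29.0 CPM in HFD TertCi replicates 30, 31 and 33. All HFD Tert libraries were above all mCherry libraries on either diet. The HFD TertCi libraries were above all SD libraries but overlapped HFD mCherry. In either direction, 21.1% of all genes did not overlap between HFD Tert and HFD mCherry. Against SD mCherry this share was 23.3% for HFD Tert and 20.3% for HFD TertCi. The share of genes for which HFD Tert lay apart from both mCherry groups was not counted. Within each HFD group the libraries ranked alike by Bst1 and by the endothelial sum. That sum was 1655, 3043 and 2792 CPM in HFD mCherry, in the replicate order given above. It was 2096, 3114 and 4995 CPM in HFD Tert and 2316, 5229 and 3163 CPM in HFD TertCi. The ranks differed in SD mCherry, where it was 1036, 1205 and 851 CPM. Sums over 9 adipose progenitor genes and over 10 lipid-associated macrophage genes ranked the libraries of each HFD group in the same way. The latter sum did so in SD mCherry too, at 990, 1326 and 1774 CPM in replicates 1, 2 and 3. The part of any of these cell types in Bst1 was not tested.

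The group means of Bst1 were ordered SD mCherry (8.30 ± 1.86 CPM), HFD mCherry (15.2 ± 6.24), HFD Tert (28.7 ± 8.22) and HFD TertCi (37.7 ± 30.7; SD, n = 3 each). The largest fitted differences of the 10 genes were those of Bst1 against SD mCherry. They were 2.18 ± 0.575 (SE) on the log2 scale for HFD TertCi (edgeR adjusted p = 0.243) and 1.79 ± 0.568 for HFD Tert (adjusted p = 0.197). DESeq2 called both, with adjusted p of 0.0121 and 0.0440. Against HFD mCherry the differences were 1.31 ± 0.559 for HFD TertCi (edgeR adjusted p = 0.313) and 0.92 ± 0.555 for HFD Tert (adjusted p = 0.419). Without HFD TertCi replicate 31, the library at 71.9 CPM, the TertCi difference was 0.44 against HFD mCherry and 1.31 against SD mCherry. The diet difference in mCherry libraries was 0.87 ± 0.557 (edgeR adjusted p = 0.346), and was -0.04 among the 8 libraries of higher epithelial score, with HFD mCherry replicate 15 alone in its group. Bst1 shares 98 bases, 2.95% of its exon bases, with Fbxl5 on the opposite strand, and the strand setting of the counting is not given in the sources used here.

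Nampt, the rate-limiting enzyme of salvage, was the most even of the 10. On the standard diet it was at 93.4 to 132 CPM, and on the high-fat diet at 89.5 to 127 with mCherry alone, 116 to 148 with Tert and 120 to 136 with TertCi, with overlap between every pair of groups (gene at chr12:32819545-32853349, plus strand). Its difference from HFD mCherry was 0.24 ± 0.198 (SE) on the log2 scale in HFD Tert (edgeR adjusted p = 0.550) and 0.25 ± 0.198 in HFD TertCi (adjusted p = 0.577). The 95% interval of the diet difference ran from -0.50 to 0.37 on the log2 scale.

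The last step of NAD synthesis has a nuclear enzyme, Nmnat1 (chr4:149467572-149485202, minus strand), and a mitochondrial one, Nmnat3 (chr9:98287435-98420438, plus strand). Another enzyme of this step, Nmnat2, is in the wider list described below and is named here after its values were seen. Nmnat2 was at 2.75 to 6.14 CPM in SD mCherry and 2.76 to 4.66 CPM in HFD mCherry. It was at 5.05 to 10.3 CPM in HFD Tert and 5.05 to 10.9 CPM in HFD TertCi. In none of the 6 comparisons did edgeR call Nmnat2. Nmnat1 was near the limit of these libraries, with 14 to 70 counts each and 0.901 to 4.05 CPM, and all groups overlapped. Nmnat3, with 33 to 240 counts, was at 8.71, 7.37 and 7.30 CPM in SD mCherry and 13.3, 7.88 and 5.43 CPM in HFD mCherry replicates 15, 17 and 20. It was at 3.73, 5.29 and 3.86 CPM in HFD Tert and 4.69, 2.12 and 4.26 CPM in HFD TertCi. Every one of the 6 libraries with a Tert or TertCi allele (2.12 to 5.29 CPM) was below every one of the 6 mCherry libraries (5.43 to 13.3 CPM), a separation shown by 0.67% of the genes tested in that direction and noticed after the values were seen.

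Against HFD mCherry, Nmnat3 differed by -1.04 ± 0.405 (SE) on the log2 scale in HFD Tert (edgeR adjusted p = 0.255) and by -1.26 ± 0.407 in HFD TertCi (adjusted p = 0.235), and was called in neither. Without HFD mCherry replicate 15, where Nmnat3 was highest, these were -0.63 and -0.85. Among the 8 libraries of higher epithelial score, where HFD mCherry is that replicate alone, they were -1.55 and -1.56. Against SD mCherry the HFD TertCi difference was -1.07 ± 0.406 (edgeR adjusted p = 0.274). The SD and HFD mCherry groups overlapped, so the diet alone gave no separation in Nmnat3.

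Naprt (chr15:75890956-75894481, minus strand), the entry enzyme of the nicotinic acid route, was at 16.8, 29.0 and 12.9 CPM in SD mCherry and 9.45, 9.20 and 11.0 CPM in HFD mCherry. All SD values were above all HFD mCherry values, with SD mCherry replicate 2 far above the rest. The log2 difference was -0.98 ± 0.340 (SE; edgeR adjusted p = 0.132), or -0.58 without that library. DESeq2 called it (adjusted p = 0.0475). HFD Tert held 18.0, 16.3 and 9.28 CPM, overlapping SD mCherry, and HFD TertCi held 9.69 to 11.6 CPM, all below SD mCherry, with a log2 difference of -0.87 ± 0.339 (edgeR adjusted p = 0.289; -0.47 without SD mCherry replicate 2). Naprt shares 277 bases, 11.8% of its exon bases, with Eef1d on the same strand, so its counts are uncertain.

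Nnmt (chr9:48591877-48605153, minus strand), which uses up nicotinamide and methyl groups and is known as an adipose gene of obesity, was at 8.96, 12.4 and 6.60 CPM in SD mCherry and 13.1, 30.4 and 28.2 CPM in HFD mCherry replicates 15, 17 and 20. All HFD mCherry libraries were above all SD libraries, replicate 15 by little. The log2 difference was 1.36 ± 0.485 (SE; edgeR adjusted p = 0.140). It was at 15.2, 28.1 and 36.1 CPM in HFD Tert (1.51 ± 0.487 above SD mCherry, edgeR adjusted p = 0.198) and at 11.5, 33.7 and 16.5 CPM in HFD TertCi (1.14 ± 0.483 above it, adjusted p = 0.318). The 4 libraries of low epithelial score held 28.2 to 36.1 CPM and the 5 other HFD libraries 11.5 to 28.1 CPM. Among the 8 libraries of higher score, again with replicate 15 as the lone HFD mCherry library, the diet difference was 0.48, and without HFD TertCi replicate 31 the TertCi difference was 0.59.

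Sirt3 (chr7:140863666-140882309, minus strand), the main deacetylase of mitochondria, was at 20.4, 20.4 and 24.7 CPM in SD mCherry and 10.8, 9.08 and 6.69 CPM in HFD mCherry replicates 15, 17 and 20. It was at 14.6, 15.2 and 6.23 CPM in HFD Tert and 15.5, 7.21 and 13.6 CPM in HFD TertCi. The 3 SD libraries (20.4 to 24.7 CPM) were above all 9 HFD libraries (6.23 to 15.5 CPM), a separation shown in that direction by 2.46% of the genes tested. The means were 21.8 ± 2.47 CPM in SD mCherry and 8.86 ± 2.08 in HFD mCherry (SD, n = 3 each), a log2 difference of -1.30 ± 0.390 (SE). This had the lowest edgeR adjusted p of the 10 genes in that comparison and was not called (adjusted p = 0.10), while DESeq2 called it (adjusted p = 0.0167). The log2 difference between HFD Tert and SD mCherry was -0.86 ± 0.386 (edgeR adjusted p = 0.313) and -0.55 without HFD Tert replicate 27.

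Within the HFD libraries Sirt3 was lower where the epithelial score was low, at 6.23 to 9.08 CPM in those 4 libraries and 10.8 to 15.5 CPM in the other 5. Among the 8 libraries of higher score the diet difference was -1.03 ± 0.305 (SE) on the log2 scale and was not called (edgeR adjusted p = 0.448). HFD mCherry is there replicate 15 alone. With the score as a covariate it was -0.99 ± 0.260 (edgeR adjusted p = 0.0535). Sirt3 shares 342 bases (5.73%) of its exons with Psmd13 and 418 (7%) with Ric8a, both on the opposite strand, so a share of its counts is uncertain.

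Sirt1 (chr10:63319005-63381704, minus strand), the nuclear sirtuin, was at 86.9, 107 and 67.3 CPM in SD mCherry and 52.3, 82.3 and 73.7 CPM in HFD mCherry. In HFD Tert it was at 72.1, 105 and 140 CPM and in HFD TertCi at 72.0, 126 and 81.4 CPM. All groups overlapped. Its log2 difference from HFD mCherry was 0.61 ± 0.310 (SE) in HFD Tert (edgeR adjusted p = 0.353) and 0.42 ± 0.310 in HFD TertCi (adjusted p = 0.541), and the diet difference was -0.33 ± 0.309 (adjusted p = 0.520). Parp1 (chr1:180568924-180601254, plus strand), the main DNA-damage-activated polymerase, was at 15.6 to 28.8 CPM in all libraries, with overlap between every pair of groups.

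For the diet comparison, edgeR called 0 of the 10 NAD genes against 0.0479% (8 of 16713) of all genes. At an unadjusted p under 0.05 there were 4, with Cd38 and Nnmt higher and Naprt and Sirt3 lower in HFD mCherry, against 24.1% of all genes. DESeq2 called 2 (Naprt and Sirt3), against 12.6% of all genes, and limma-voom 0. The libraries did not overlap for the same 4 genes, against 25.5% of all genes. The median log2 difference was -0.05 over the 10 genes and -0.08 over all genes, and scaling by library totals alone moved the latter to -0.27.

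For HFD Tert against HFD mCherry, edgeR called 0 of the 10 NAD genes and 0% of all genes. One NAD gene, Nmnat3, had an unadjusted p under 0.05, against 16.4% of all genes, and DESeq2 and limma-voom each called 0. Bst1 (higher) and Nmnat3 (lower) did not overlap between the groups, against 21.1% of all genes. For HFD TertCi against HFD mCherry, edgeR called 0 of the 10 against 0.012% (2 of 16713) of all genes. Bst1 and Nmnat3 had an unadjusted p under 0.05, against 14.7% of all genes, and DESeq2 and limma-voom each called 0. Only Nmnat3 of the 10 did not overlap, against 21.5% of all genes.

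Between HFD Tert and HFD TertCi, which differ in the form of the enzyme, edgeR called 0 of the 10 NAD genes and 0% of all genes. None of the 10 had an unadjusted p under 0.05, against 1.36% of all genes, DESeq2 and limma-voom called 0, and all 10 overlapped, against 5.13% of all genes that did not. The fitted difference of Cd38 was -0.17 on the log2 scale, with a 95% interval of -0.91 to 0.56, and that of Bst1 was -0.39, with an interval of -1.61 to 0.82 (edgeR adjusted p = 1 for each). Without HFD TertCi replicate 31 these became 0.01 and 0.48. The intervals include differences of over 1.5-fold for both genes, so the absence of a call does not show that the alleles acted alike.

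**Figure D3:**
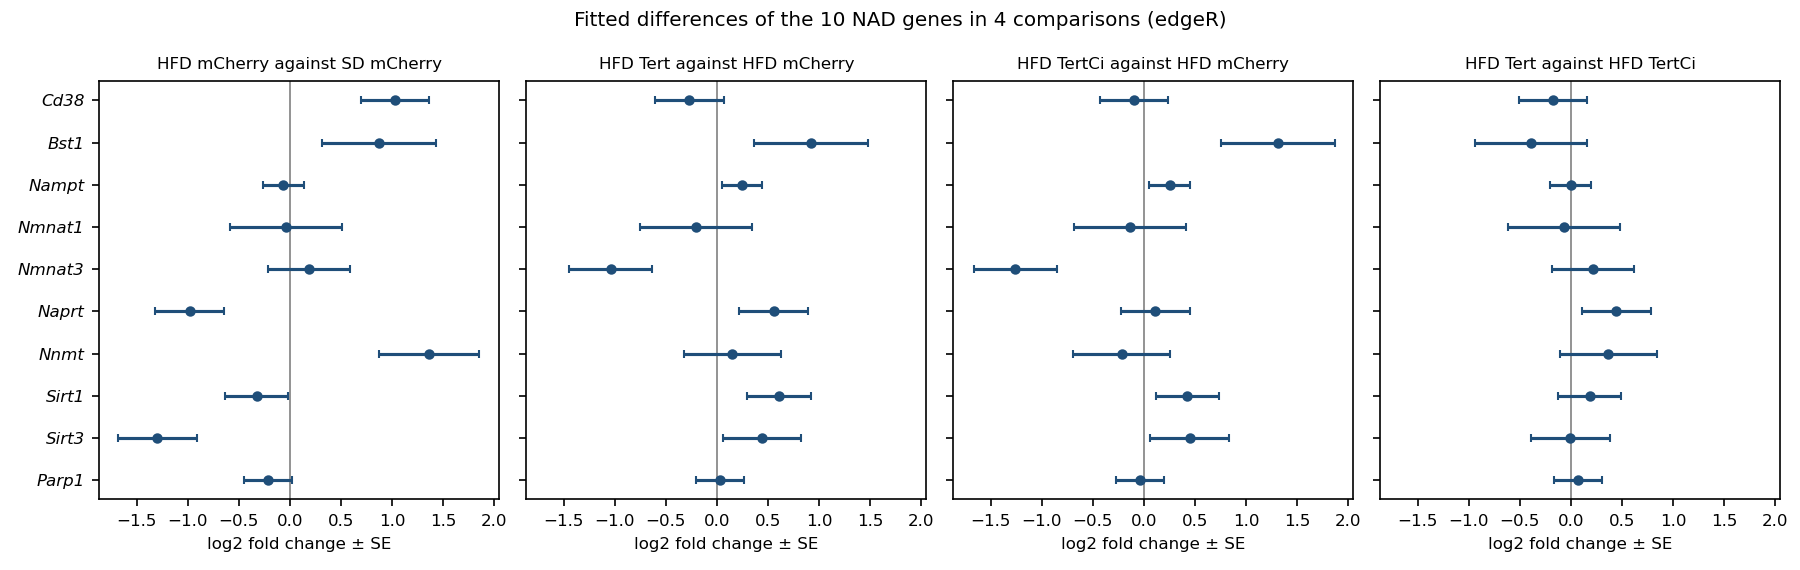
Log2 fold change ± SE (horizontal axes) of the 10 NAD genes in 4 comparisons from the edgeR fit of 12 libraries. In the diet panel Nnmt (1.36) and Cd38 (1.03) lie furthest right and Sirt3 (-1.30) and Naprt (-0.98) furthest left, and in the Tert and TertCi panels Bst1 and Nmnat3 lie furthest from 0; none was called.

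Against SD mCherry, edgeR called 0 of the 10 NAD genes and 0% of all genes for both HFD Tert and HFD TertCi. At an unadjusted p under 0.05 there were 4 NAD genes for HFD Tert (Cd38, Bst1 and Nnmt higher, Sirt3 lower) against 15.8% of all genes, and 5 for HFD TertCi (Cd38, Bst1 and Nnmt higher, Nmnat3 and Naprt lower) against 14.7%. DESeq2 called Bst1 in each, with 5.49% and 4.1% of all genes, and limma-voom called 0. For HFD Tert 4 of the 10 genes did not overlap (Bst1 and Nnmt higher, Nmnat3 and Sirt3 lower), against 23.3% of all genes. For HFD TertCi 5 did not (Cd38 and Bst1 higher, Nmnat3, Naprt and Sirt3 lower), against 20.3% of all genes. In the F-test over the 4 groups edgeR called 0 of the 10 and 0.012% of all genes (lowest adjusted p among the 10, Bst1, 0.159). At an unadjusted p under 0.05 the F-test had 4 of the 10 (Bst1, Nmnat3, Naprt and Sirt3) against 20.2% of all genes. DESeq2 called 2 of the 10 and 12.8% of all genes, and limma-voom 0.

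A wider list of 57 other NAD genes, in 9 groups by role, had 56 in the count tables and 52 tested. edgeR called 0 of the 52 in each of the 6 comparisons. In the diet comparison 5 of the 52 were higher and 6 lower at an unadjusted p under 0.05, against 24.1% of all genes, and the median log2 difference was -0.10. limma-voom called 0. DESeq2 called 4 of the 49 it gave an adjusted p (Parp14, Oard1, Haao and Nt5e), against 12.6% of all genes. With the epithelial score in the model edgeR called 4 of 52 (Parp14, Oard1, Macrod1 and Nt5e), against 5.94%. In each of these sets 1 gene was higher and 3 were lower. For HFD Tert against HFD mCherry 1 was higher and 5 lower, against 16.4% of all genes, and for HFD TertCi 4 were higher and 5 lower, against 14.7%, with 0 called by DESeq2 and by limma-voom in both. Between HFD Tert and HFD TertCi none had an unadjusted p under 0.05, against 1.36% of all genes, and DESeq2 and limma-voom called 0. Against SD mCherry 4 were higher and 6 lower in HFD Tert, against 15.8% of all genes, and 3 higher and 2 lower in HFD TertCi, against 14.7%. There DESeq2 called Haao, an enzyme of the pathway from tryptophan, in each, against 5.49% and 4.1% of all genes, and limma-voom called 0. In the F-test over the 4 groups DESeq2 called Enpp1 and Haao, against 12.8% of all genes. With the epithelial score in the model edgeR called Parp14 and Haao in the F-test, against 6.1%, and limma-voom called 0.

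The gene of highest mean CPM in each role, without scaling to transcript length, is described next. Among the other ectoenzymes this was Nt5e (CD73), which cleaves adenosine monophosphate and nicotinamide mononucleotide outside cells. Per kilobase of merged exon the order can differ, and Art3 of the same role was above Nt5e in every group. Nt5e was at 130, 124 and 109 CPM in SD mCherry and 54.1, 27.8 and 33.6 CPM in HFD mCherry, with no overlap and a log2 difference of -1.65 ± 0.488 (SE; edgeR adjusted p = 0.0968). Its values in HFD Tert replicates 25, 26 and 27 were 102, 83.9 and 24.1 CPM and in HFD TertCi replicates 30, 31 and 33 they were 89.8, 40.5 and 50.9 CPM, so the low-score library was the lowest in each. Among sirtuins Sirt2, a mainly cytoplasmic deacetylase, was highest in HFD mCherry, at 101 ± 15.5 CPM. It was at 72.3 ± 7.84 CPM in SD mCherry, and the libraries with Tert and TertCi held 74.3 ± 4.38 and 73.1 ± 6.35 CPM (SD, n = 3 each). The diet difference was 0.48 ± 0.169 (SE) on the log2 scale (edgeR adjusted p = 0.138).

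Ido1, which opens the pathway from tryptophan, led the de novo group through a single library. It was at 198 CPM (3583 counts) in HFD mCherry replicate 15 and at 0.374 to 7.18 CPM in the other 11. That library also had the highest epithelial score (8.72). The other leading genes spanned these ranges over the 12 libraries: the NAD kinase Nadk (107 to 198 CPM), the tankyrase Tnks2 (173 to 263), the mitochondrial NAD carrier Slc25a51 (78.8 to 147), the ADP-ribosylarginine hydrolase Adprh (43.0 to 101), the riboside kinase Nmrk1 (4.84 to 11.3) and the oxidase Aox1 (4.96 to 14.2). Parp14, named after its values were seen, had the lowest adjusted p of the 52 in the diet comparison. This interferon-induced mono-ADP-ribosyltransferase was at 75.1 ± 13.6 CPM in SD mCherry and 243 ± 101 in HFD mCherry (log2 difference 1.69 ± 0.450, SE; edgeR adjusted p = 0.0817). Without HFD mCherry replicate 15, 7 of the 52 were called in the diet comparison (2 higher and 5 lower), against 12.2% of all genes. These were Nadk2, Parp14, Oard1, Macrod1, Sirt2, Parp16 and Nt5e.

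**Figure D4:**
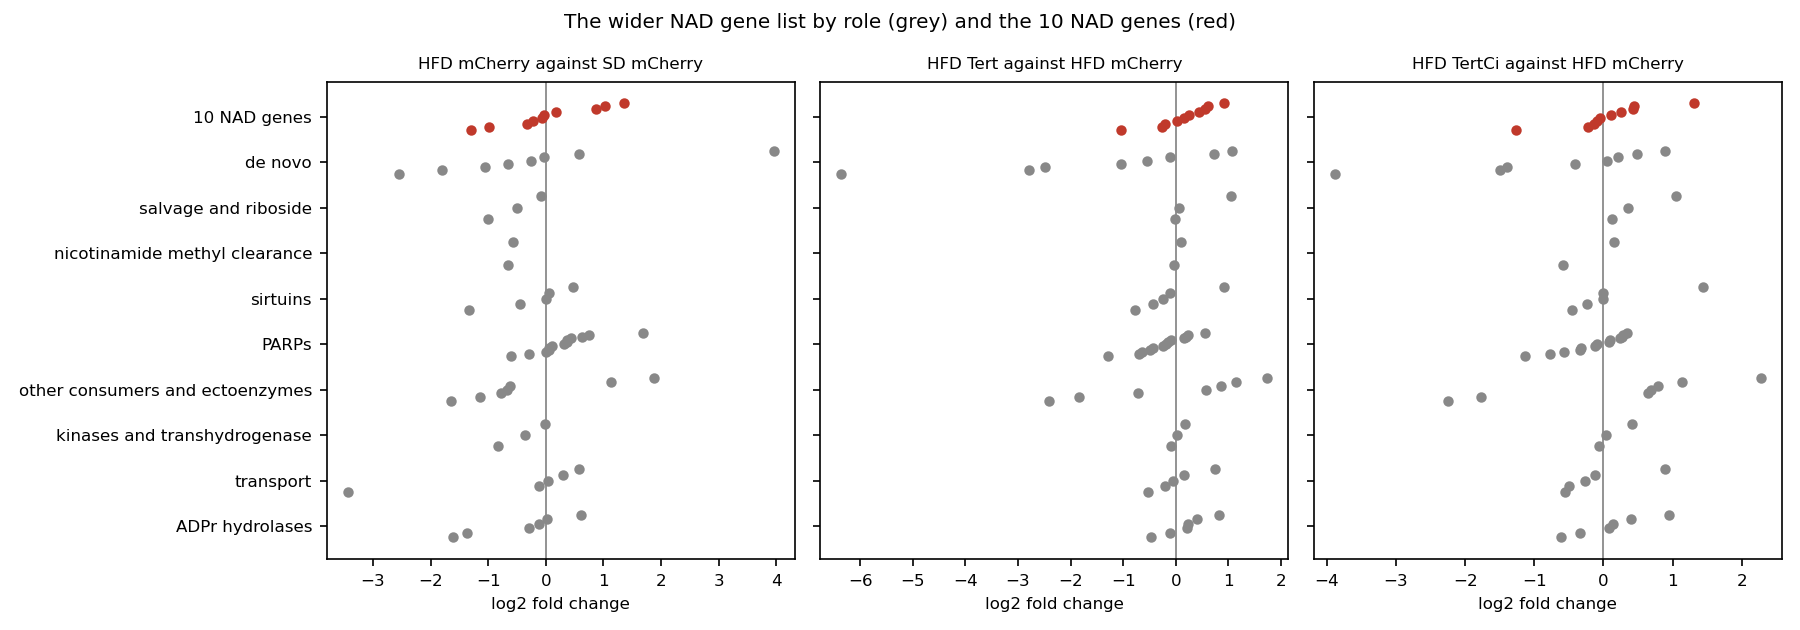
Log2 fold change (horizontal axes, a different range in each panel) of the 52 tested genes of the wider NAD list, 1 row per role (grey), and of the 10 NAD genes (red) in the diet, Tert and TertCi comparisons. Points lie on both sides of 0 in most rows; the grey point at 3.95 in the diet panel is Ido1, which was at 198 CPM in HFD mCherry replicate 15 alone.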

How the data were processed

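Poly-A selected RNA of 12 mouse libraries was sequenced. The authors deposited raw counts per gene, made with Subread, SAMtools and featureCounts 1.6.4 on mm10 per the submitters' processing notes. The annotation and strand setting are not given in the sources used here. Groups came from the labels. Counts of 12 libraries were fitted together with edgeR 4.0.16 (filterByExpr, TMM, robust quasi-likelihood, no covariate; 16713 of 24422 features tested, common biological coefficient of variation 0.536) in R 4.3.3, and p-values were adjusted over all genes by Benjamini-Hochberg. Exon lengths came from GENCODE M21. The scripts were tested on simulated data. DESeq2 1.42.0, limma-voom (limma 3.58.1), other scalings, no filter, 2-group fits, the epithelial score as a covariate and leaving out each library were the alternatives. The 10 NAD genes are all named. Of the wider list, genes called and the gene of highest mean CPM per role were to be named, with any other marked, and the 5 genes nearest Cd38. The NAD genes and all lists were chosen with earlier results of these data known. No pair of replicates agreed within counting noise.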

Additional observations from a re-analysis of the deposited data

How the results depend on the processing

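No paired analysis was possible because no replicate number occurs in more than 1 group. The count of NAD genes called was 0 in every comparison in edgeR, and under the alternatives it became 2 (diet), 1 (HFD Tert against SD mCherry), 1 (HFD TertCi against SD mCherry) and 2 (F-test) with DESeq2, and 1 (diet), 1 (HFD TertCi against SD mCherry) and 1 (F-test) with the epithelial score as a covariate. Leaving out single libraries gave 0 to 1 in the diet comparison, where the 1 is Cd38 without HFD mCherry replicate 15, and 0 in all others.

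The count over the whole table moved more. DESeq2 gave 1988 (diet), 805 (Tert), 599 (TertCi), 7 (Tert against TertCi), 975 and 696 (HFD Tert and HFD TertCi against SD mCherry) and 2224 (F-test). The covariate gave 992, 822, 481, 3 (HFD Tert against SD mCherry), 237 (HFD TertCi against SD mCherry) and 1019 (F-test). The diet count of 8 became 0 with limma-voom, 2 with RLE factors and 0 with only the 2 groups, the TertCi count of 2 became 1 with library size only and 0 with only the 2 groups, and the F-test count became 0 with limma-voom. Among the 8 libraries with an epithelial score of 3 or more, chosen after seeing the data, the counts were 20 (Tert), 17 (TertCi) and 13 (F-test). Leaving out single libraries gave 0 to 2082 (diet; 686 without HFD Tert replicate 27 and 48 without SD mCherry replicate 3), 0 to 51 (Tert), 0 to 198 (TertCi), 0 (Tert against TertCi), 0 to 484 and 0 to 326 (HFD Tert and HFD TertCi against SD mCherry) and 0 to 651 (F-test). HFD mCherry replicate 15 gave the highest diet, Tert, TertCi and F-test counts, and SD mCherry replicate 3 those against SD mCherry. The cause was not tested.

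Of the 10 NAD genes, 4 (diet), 3 (Tert), 4 (TertCi), 8 (Tert against TertCi), 2 and 2 (HFD Tert and HFD TertCi against SD mCherry) changed sign in at least 1 of 20 alternatives. Among values printed here, Bst1 did in the diet comparison (-0.0364, higher-score libraries), Cd38 in TertCi (0.0252 with library size only, 0.0591 with the covariate, 0.280 in the higher-score libraries, and -0.314 to 0.0433 leaving out single libraries), and Cd38 (-0.537 to 0.0157 leaving out single libraries) and Bst1 (0.226 in the higher-score libraries, and -0.812 to 0.476 leaving out single libraries) in Tert against TertCi. Low counts limit Nmnat1 and Nmnat3.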
